A study of Mus musculus with 9 samples.

Results

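The genes described are the Nr4a nuclear receptors Nr4a1, Nr4a2 and Nr4a3, the Krüppel-like factors Klf2, Klf4, Klf5, Klf6 and Klf10, the stress-response gene Ier3 and the proto-oncogene Myc, which are 10 of the 24011 genes with a symbol on the array. They were matched by symbol. Each had a single probe set, so no choice among probe sets was needed. The genes themselves were chosen by measured values of these arrays, since earlier results, among them the lower values of Nr4a2, Klf10, Ier3 and Myc with GREM1, were known when they were put together. Counts over the 10 are therefore descriptions.

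The study measured mouse primary myoblasts, which are the cultured progeny of satellite cells, the stem cells of skeletal muscle, on 1 Affymetrix array per sample. All cells were grown in 20% fetal bovine serum with basic FGF at 2.5 ng/ul. They were then put in 2% horse serum and treated for 24 h with BMP4 protein at 100 ng/ml (3 samples), with GREM1 protein at 500 ng/ml (3 samples), or mock-treated as controls (3 samples). BMP4 is a secreted growth factor whose receptors activate SMAD proteins, and GREM1 is an extracellular antagonist that captures such ligands. Nothing in the labels tells whether replicates came from separate cultures, so a p-value here covers the spread among these arrays, which may be technical. The mouse strain and age are not used here.

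Nr4a receptors are orphan nuclear receptors whose activity is set mainly by how much of them a cell makes, and their genes respond within a short time to serum, cyclic AMP, calcium and contraction. In muscle they are known for the control of glucose use and fibre size. Krüppel-like factors bind GC-rich DNA through zinc fingers. Klf2 and Klf4 act downstream of the kinase Erk5 in muscle cell fusion, Klf5 works with MyoD during differentiation, and Klf10 was first found as a gene induced by TGF-beta. Myc pairs with Max to drive growth and proliferation and holds back muscle differentiation, and Ier3 modulates survival and stress signalling. Many of these genes are immediate early genes, whereas the samples here were taken 24 h after treatment.

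Promoter windows in the RefSeq table (build GRCm38.p6) were matched for 7 of the 10 genes: the 3 Nr4a genes, Klf2, Klf4, Klf6 and Ier3. The 250 bases before the listed transcript start are shown for Nr4a2, Klf4 and Ier3, which all passed the test between BMP4 and GREM1 described below, and for Nr4a1, the relative of Nr4a2 that did not pass it. They lie at chr2:57124004-57124253 (minus strand), chr4:55532476-55532725 (minus strand), chr17:35821463-35821712 (plus strand) and chr15:101266596-101266845 (plus strand), in the order Nr4a2, Klf4, Ier3, Nr4a1. Each is written 5′ to 3′ on the gene's strand, ending at the base before the start, and capitals mark a match to any motif searched on either strand.
Nr4a2: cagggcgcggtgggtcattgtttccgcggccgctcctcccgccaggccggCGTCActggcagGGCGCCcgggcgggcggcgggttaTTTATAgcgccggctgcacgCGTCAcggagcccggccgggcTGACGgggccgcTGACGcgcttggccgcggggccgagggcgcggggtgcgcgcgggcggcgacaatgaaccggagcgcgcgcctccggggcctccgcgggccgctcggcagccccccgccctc
Nr4a1: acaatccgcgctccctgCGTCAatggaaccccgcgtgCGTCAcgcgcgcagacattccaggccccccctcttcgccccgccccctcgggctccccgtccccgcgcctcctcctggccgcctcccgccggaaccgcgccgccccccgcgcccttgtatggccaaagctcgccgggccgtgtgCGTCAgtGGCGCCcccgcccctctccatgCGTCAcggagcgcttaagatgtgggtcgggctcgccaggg
Klf4: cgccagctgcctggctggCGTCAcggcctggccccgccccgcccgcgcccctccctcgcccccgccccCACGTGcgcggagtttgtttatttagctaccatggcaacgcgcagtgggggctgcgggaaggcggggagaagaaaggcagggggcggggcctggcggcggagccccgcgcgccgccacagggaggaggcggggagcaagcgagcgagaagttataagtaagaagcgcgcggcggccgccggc
Ier3: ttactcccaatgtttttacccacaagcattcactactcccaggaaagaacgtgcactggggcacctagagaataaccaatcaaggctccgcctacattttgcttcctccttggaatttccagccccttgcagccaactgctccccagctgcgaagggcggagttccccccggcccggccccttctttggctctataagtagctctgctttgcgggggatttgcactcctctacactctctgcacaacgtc

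The motifs searched on both strands were the cyclic AMP response element TGACGTCA and its core TGACG, the CArG box of serum response factor, the SMAD-associated sequences GGCGCC and GTCTAGAC, the E-box CACGTG, the Nr4a response element AAAGGTCA and the TATA box TATAAA. The core is contained in the full element. TGACG was in 5 of the 7 windows, against 17.8% of 32851 windows of the same length. Nr4a2 had 4 matches to it, Nr4a1 4 and Nr4a3 4, while Klf2 and Klf4 had 1 each. GGCGCC was in 2 of the 7 windows, those of Nr4a2 and Nr4a1, against 9.59% of all windows. CACGTG was in the windows of Klf4 and Klf6 (6.02% of all windows) and TATAAA in that of Nr4a2 (12.4% of all windows). The TATAAA match lay on the strand opposite to the gene, at positions -164 to -159 from the start. The full element, the CArG box, GTCTAGAC and AAAGGTCA had no match in the 7 windows and occurred in 1.55%, 1.47%, 0.167% and 1.34% of all windows. The Nr4a2 window was 80.0% G and C and the Nr4a1 window 74.4%, against a median of 52.4% over all windows and 54.4% for Ier3. Nr4a2 and Nr4a1 thus held the same number of TGACG matches and 1 GGCGCC each. Both of these motifs contain a cytosine followed by a guanine. Such pairs numbered 44 for Nr4a2, 34 for Nr4a1, 32 for Klf4 and 29 for Klf2. They numbered 21 for Klf6, 18 for Nr4a3 and 8 for Ier3, against a median of 6 over all windows. Whether the motif shares differ from those of windows with similar base composition was not tested.

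Values are log2 expression from robust multi-array average (RMA), so a difference of 1 is a 2-fold change. All 10 genes lay above the limit for dim genes on all 9 arrays and were among the 17141 tested. A gene was called where its adjusted p was under 0.05 in limma, with Benjamini-Hochberg adjustment over those 17141 genes. As a check that the added proteins acted, the BMP target Smad6, an inhibitory SMAD, fell by 1.20 ± 0.18 (SE) with GREM1 (adjusted p = 0.00784). It differed by 1.03 ± 0.18 with BMP4, which did not pass (adjusted p = 0.0796, but 0.0259 with array weights and 0.0298 without GREM1 replicate 3). Id1, an inhibitor of myogenic factors, fell by 1.32 ± 0.21 with GREM1 (adjusted p = 0.0117, or 0.0556 without GREM1 replicate 1). With BMP4 against control Id1 differed by 0.52 ± 0.21 with overlapping arrays, which did not pass (adjusted p = 0.600). On the second principal component, which held 20.9% of the variance, control replicate 1 stood apart at 31.6, with the next array at 6.12. Without it the GREM1 calls of Nr4a2 and Myc given below held, while the adjusted p was 0.0557 for Klf10 and 0.0856 for Ier3.

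All 9 myogenic markers, among them Myod1 and Des, lay above the limit for dim genes on every array. Their mean log2 value was 9.17 to 9.57 in the controls, 9.51 to 9.60 with BMP4 and 9.65 to 9.85 with GREM1, so that the GREM1 arrays stood above all others in this mean. Of the 9, 3 rose with GREM1 against control (Cdh15, Itga7 and Ncam1) and 0 fell, where 2.08% of all tested genes rose and 2.21% fell. However, Myf5 was -0.85 and Pax7 -0.20 (adjusted p = 0.144 and 0.504). Of markers of other cells, 2 to 3 of 5 for fibroblasts, 1 to 4 of 6 for endothelium, 3 to 5 of 6 for leukocytes, 4 of 5 for pericytes and 1 of 2 for Schwann cells lay above it. The leukocyte antigen Ptprc, at a mean of 3.01, the fibroblast gene Dcn, at 2.78, and the endothelial gene Emcn, at 2.80, lay below the limit, which was 3.89 to 4.02, whereas the leukocyte gene Cd68, at 6.49, the fibroblast gene Cd34, at 5.76, and the endothelial gene Pecam1, at 4.53, lay above it. Of the pericyte markers, Cspg4 was 0.56 higher and Abcc9 0.91 lower with BMP4 than with GREM1 (adjusted p = 0.0132 and 0.0370), and Abcc9 was 0.88 with GREM1 against control (adjusted p = 0.0528). Limma called 0 markers of the other 4 cell types in each comparison, with at most 1 in a list at an unadjusted p under 0.05. Over all tested genes 0.117% were called with BMP4, 4.29% with GREM1 and 6.45% between them. Endothelial markers were above the limit in 1 to 2 of 6 cases on control arrays, 1 to 3 on BMP4 arrays and 2 to 4 on GREM1 arrays. The part of these marker differences in the results below was not tested, and fewer cells of a type and less RNA per cell cannot be told apart in these bulk samples.

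**Figure D1:**
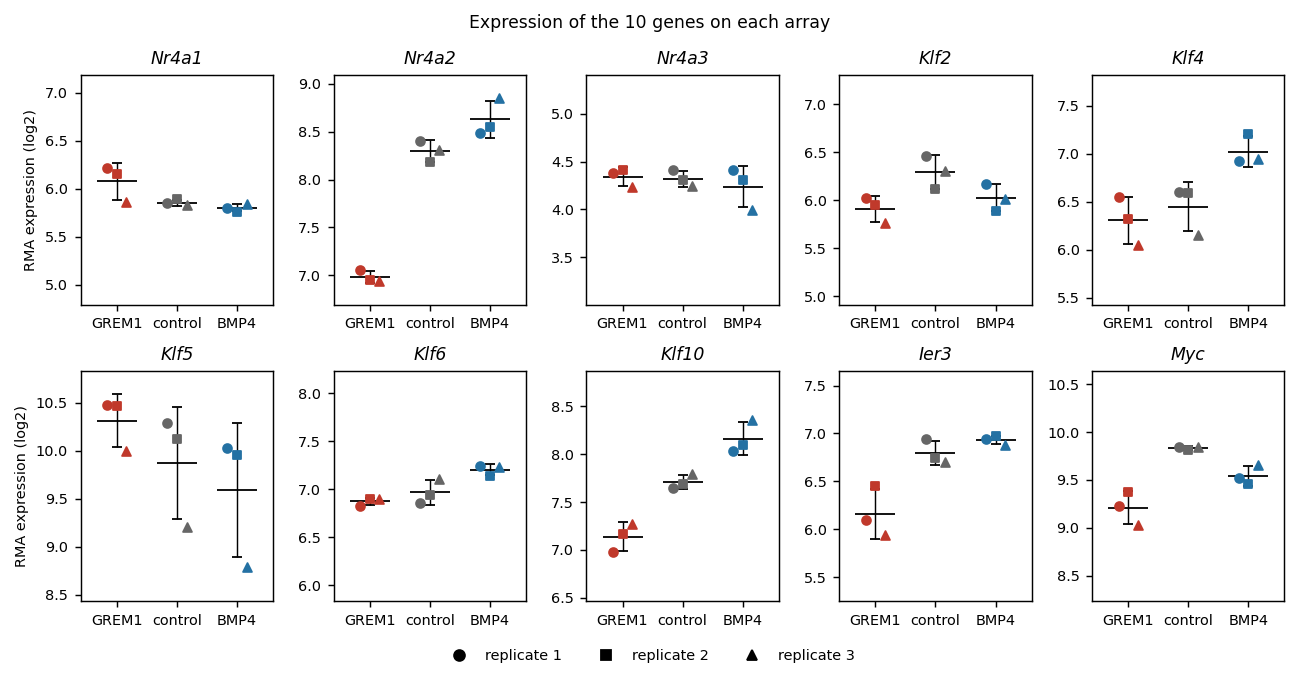
RMA expression (log2, y axis) of each of the 10 genes on the 9 arrays by group. Points are arrays, with the shape giving the replicate number, and bars are the group mean and SD; every panel spans the same log2 range. The GREM1 arrays of Nr4a2 lie between 6.94 and 7.05, below all control and BMP4 arrays, and replicate 3 is the lowest array of Klf5 in each group.

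Among the Nr4a receptors, Nr4a2 had the largest difference with GREM1. The control arrays read 8.40, 8.18 and 8.31, the BMP4 arrays 8.49, 8.55 and 8.85, and the GREM1 arrays 7.05, 6.95 and 6.94. The 3 groups did not overlap, and the order was GREM1, control, BMP4. Nr4a2 fell by 1.32 ± 0.11 with GREM1 (2.49-fold lower, adjusted p = 5.42e-04), and BMP4 was 1.65 ± 0.11 above GREM1 (3.13-fold, adjusted p = 4.75e-05). In each of these comparisons it ranked high among the 17141 genes by p, at place 14 and 22. The BMP4 and control groups differed by 0.33 ± 0.11 (95% interval 0.086 to 0.58), which did not pass (adjusted p = 0.4997), although their arrays did not overlap.

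Nr4a1, also called Nur77, had values of 5.85, 5.89 and 5.83 in the controls, 5.80, 5.76 and 5.84 with BMP4, and 6.22, 6.16 and 5.86 with GREM1. Of the GREM1 arrays, replicates 1 and 2 lay above all others while replicate 3 lay among the controls. Neither protein gave a call: the difference was 0.22 ± 0.10 with GREM1 (95% interval -0.00029 to 0.45, adjusted p = 0.251) and -0.053 ± 0.10 with BMP4 (adjusted p = 0.913). BMP4 arrays lay below GREM1 arrays without overlap, by -0.28 ± 0.10, which did not pass (adjusted p = 0.155, and 0.0335 to 0.415 over the alternatives). Nr4a3, also called Nor-1, ranged from 3.9997 to 4.42 over the 9 arrays, with group means of 4.32 in the controls, 4.24 with BMP4 and 4.34 with GREM1. All 3 groups of Nr4a3 overlapped, and its differences had intervals of -0.34 to 0.18 for BMP4 and -0.23 to 0.28 for GREM1 against control.

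The 3 receptors were compared with each other within arrays, where a fixed difference between probe sets cancels. The value of Nr4a2 minus Nr4a1 was 2.44 ± 0.13 (SD, n = 3) in the controls and 0.90 ± 0.16 with GREM1, a change of -1.54. Nr4a2 minus Nr4a3 changed by -1.34 with GREM1. Nr4a3 lay near the limit for dim genes, at percentile 32.4 to 38.9 of its arrays, so this difference says little beyond Nr4a2 alone. Nr4a3 minus Nr4a1 changed by -0.20. In all 3 the GREM1 and control arrays did not overlap, which gave the exact permutation p of 0.10 that is the smallest possible with 3 against 3 (0.14 adjusted over 21 pair comparisons). No GREM1 array of Nr4a2 minus either relative reached the lowest control array.

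**Figure D2:**
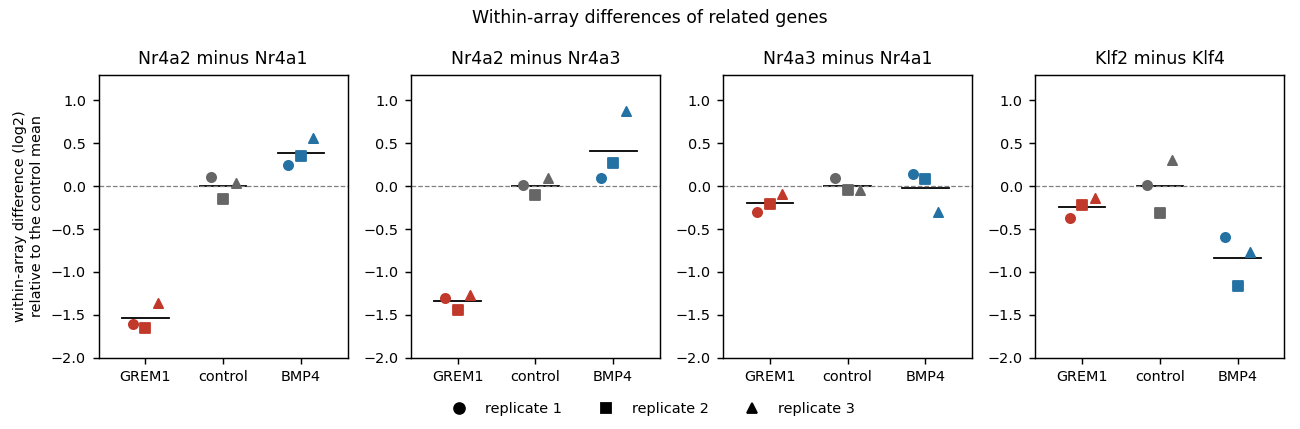
Within-array difference between related genes (log2, y axis), set to 0 at the control mean, for each array by group; lines are group means and shapes give the replicate number. Nr4a2 minus Nr4a1 lies 1.54 lower with GREM1 than in the controls, and Klf2 minus Klf4 lies 0.84 lower with BMP4.

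Of the Klf members, Klf10 had the lowest adjusted p in each of the 3 comparisons. It read 7.65, 7.69 and 7.79 in the controls, 8.03, 8.10 and 8.35 with BMP4, and 6.98, 7.17 and 7.27 with GREM1. The groups did not overlap, in the order GREM1, control, BMP4. BMP4 stood 1.02 ± 0.11 above GREM1 (2.03-fold, adjusted p = 6.36e-04). Klf10 fell by 0.57 ± 0.11 with GREM1 (1.49-fold lower, adjusted p = 0.0238), a call lost without control replicate 1 or 3 or GREM1 replicate 1 or 2 (adjusted p up to 0.0896). With BMP4 it was 0.45 ± 0.11 higher, which did not pass (adjusted p = 0.307, and from 0.0670, with the replicate block, to 0.692 over the alternatives). Klf11, the closest relative of Klf10, differed by 0.0070 ± 0.18 with GREM1 (adjusted p = 0.991). Klf10 minus Klf11 changed by 1.18 between GREM1 and BMP4 without overlap (exact permutation p = 0.10) and by -0.58 between control and GREM1 with overlap (exact permutation p = 0.20).

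Klf4 is a factor of stem cell maintenance and differentiation. Its arrays read 6.60, 6.59 and 6.15 in the controls, 6.92, 7.21 and 6.94 with BMP4, and 6.54, 6.32 and 6.05 with GREM1. BMP4 arrays stood above all others, and control and GREM1 arrays overlapped. BMP4 was 0.72 ± 0.16 above GREM1 (1.65-fold, adjusted p = 0.0291), a call lost without any of the BMP4 arrays or without GREM1 replicate 2 or 3 (adjusted p up to 0.106). Against control it was 0.58 ± 0.16 with BMP4 (1.49-fold, adjusted p = 0.405, and from 0.0951, with the replicate block, to 0.742 over the alternatives) and -0.14 ± 0.16 with GREM1 (adjusted p = 0.679).

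Klf2, which shares the Erk5 pathway with Klf4, had another order. Its controls read 6.46, 6.11 and 6.30, its BMP4 arrays 6.17, 5.89 and 6.02, and its GREM1 arrays 6.02, 5.95 and 5.76. The control mean was highest. Control and BMP4 arrays overlapped, and GREM1 arrays lay below the controls without overlap. The difference with GREM1 was -0.38 ± 0.12, which did not pass (adjusted p = 0.104, and from 0.0310, with the replicate block, to 0.247 over the alternatives). With BMP4 it was -0.27 ± 0.12 (adjusted p = 0.618). Within arrays, Klf2 minus Klf4 changed by -0.84 between control and BMP4, without overlap (exact permutation p = 0.10, the smallest possible).

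Klf6, a zinc finger factor induced by injury and growth factors, spanned a narrow range. It read 6.86, 6.94 and 7.11 in the controls, 7.24, 7.14 and 7.24 with BMP4 and 6.83, 6.89 and 6.90 with GREM1. BMP4 arrays lay above the others, while control and GREM1 arrays overlapped. BMP4 was 0.33 ± 0.086 above GREM1, just short of the threshold (adjusted p = 0.0529, and 0.0278 to 0.176 over the alternatives).

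Klf5 had the widest spread of the 10 within groups. It read 10.29, 10.12 and 9.20 in the controls, 10.03, 9.95 and 8.79 with BMP4, and 10.48, 10.47 and 9.995 with GREM1. The last value of each group is replicate 3, which was the lowest of its group each time. The SE of a Klf5 difference was accordingly 0.36, against a median of 0.115 over all genes, and the difference with GREM1 was 0.44 (95% interval -0.37 to 1.26, adjusted p = 0.550). BMP4 minus GREM1 was -0.72 ± 0.36, which did not pass (adjusted p = 0.322, and from 0.0116, with the replicate block, to 0.728 over the alternatives). Replicate 3 was also the lowest Nr4a3 array in each group, and the highest Klf10 array in each group. The numbers therefore went with the level of these 3 genes across groups, but not with theirs alone. On the first principal component, which held 42.25% of the variance, replicate 3 was also the lowest array of each group. It lay at -19.00 in the controls, -28.63 with BMP4 and 15.96 with GREM1. Replicate 3 arrays also deviated together from their group means (r = 0.58 for control and BMP4, 0.47 for control and GREM1, 0.42 for BMP4 and GREM1). The cause was not tested.

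**Figure D3:**
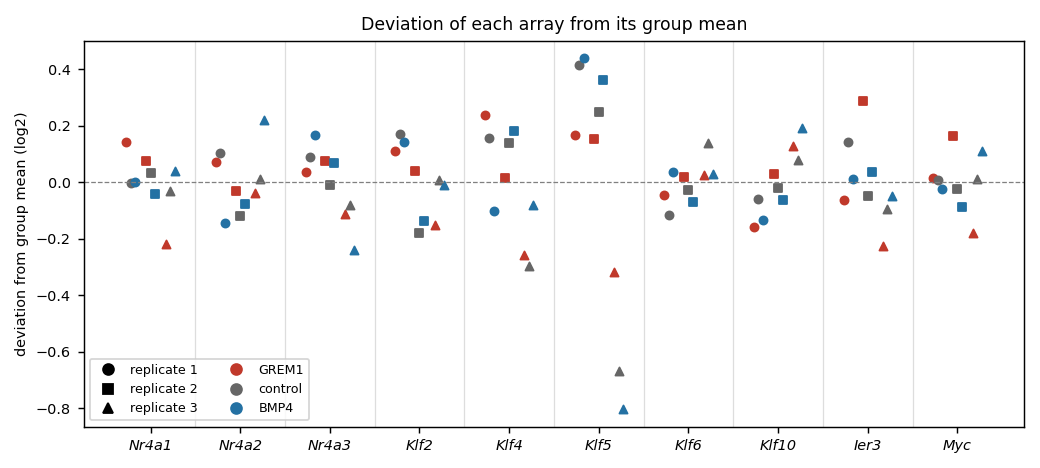
Deviation of each array from its group mean (log2, y axis) for the 10 genes; shapes give the replicate number and colours the group. Replicate 3 of Klf5 lies 0.67, 0.80 and 0.32 below the mean of the control, BMP4 and GREM1 group, and replicate 3 of Klf10 lies above the mean in all 3 groups.

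Myc was lower than control in both treated groups. Its controls read 9.84, 9.81 and 9.85, its BMP4 arrays 9.52, 9.45 and 9.65, and its GREM1 arrays 9.23, 9.37 and 9.03. The groups did not overlap, in the order GREM1, BMP4, control. Myc fell by 0.62 ± 0.10 with GREM1 (1.54-fold lower, adjusted p = 0.0117), and this call held under all 18 alternatives (adjusted p 0.00755 to 0.0479). With BMP4 the difference was -0.29 ± 0.10 (95% interval -0.52 to -0.065, adjusted p = 0.520), and BMP4 was 0.33 ± 0.10 above GREM1 (adjusted p = 0.0912). Myc was thus placed differently from Nr4a2 and Klf10, whose control arrays lay between those of the treated groups.

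Ier3 read 6.94, 6.75 and 6.71 in the controls, 6.94, 6.97 and 6.88 with BMP4, and 6.10, 6.45 and 5.94 with GREM1. GREM1 arrays lay below all others, and control and BMP4 arrays overlapped. BMP4 was 0.77 ± 0.13 above GREM1 (1.71-fold, adjusted p = 0.00742), a call that held under the same 18 alternatives. Ier3 fell by 0.64 ± 0.13 with GREM1 (1.56-fold lower, adjusted p = 0.0264). That call was lost when only the compared groups were fitted (adjusted p = 0.0713), without any single control and without GREM1 replicate 1 or 3 (adjusted p up to 0.105).

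**Figure D4:**
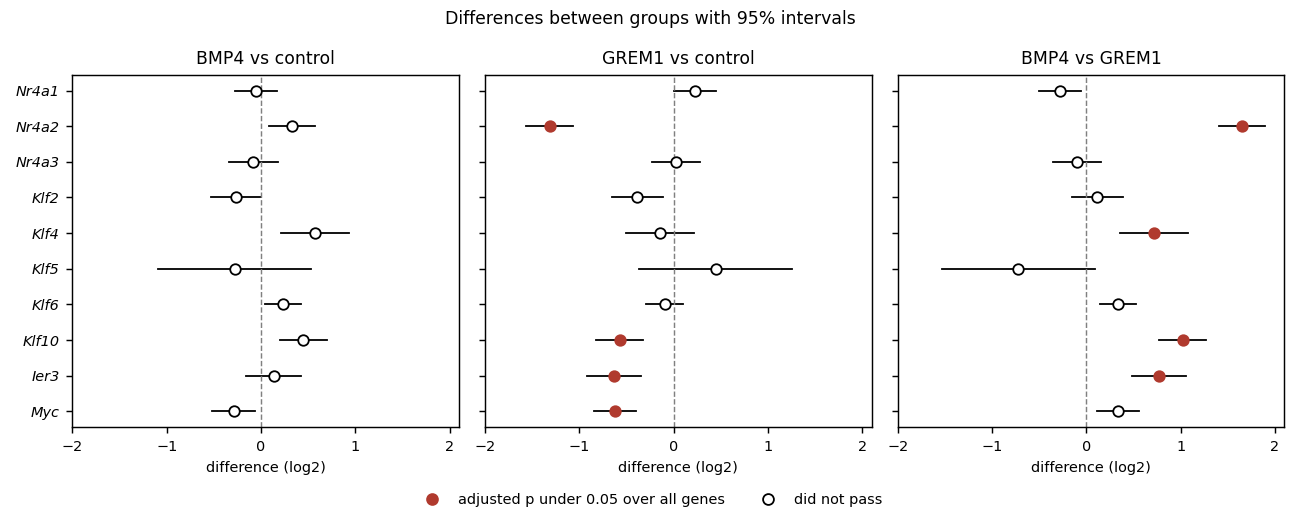
Difference between groups (log2, x axis) of each of the 10 genes in the 3 comparisons, with 95% intervals from limma; filled points passed an adjusted p of 0.05 over all genes. With GREM1 against control 4 genes are filled, all to the left of 0, and between BMP4 and GREM1 4 genes are filled, all to the right.

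Counted over the 10 genes, 4 fell and 0 rose with GREM1 against control (Nr4a2, Klf10, Ier3 and Myc), where 4.29% of all tested genes were called, 2.21% lower and 2.08% higher. Their GREM1 and control arrays did not overlap in 5 of the 10, all lower, against 24% of all genes, 12.7% lower and 11.3% higher. The 2 comparisons with control share the control arrays. With BMP4 against control limma called 0 of the 10, where 0.117% of all genes were called, 0.0933% higher and 0.0233% lower. Of the 10, 6 had an unadjusted p under 0.05 there, against 8.02% of all genes. In 5 the BMP4 and control arrays did not overlap, 4 higher and 1 lower, against 11.2% of all genes, 5.31% higher and 5.9% lower. Between BMP4 and GREM1 4 genes were higher with BMP4 (Nr4a2, Klf4, Klf10 and Ier3), where 6.45% of all genes were called, 3.62% higher and 2.83% lower. There 7 had an unadjusted p under 0.05, against 19.4%, and 7 did not overlap, against 24.5%, with 6 higher (12.3%) and 1 lower (12.2%). Since the 10 were chosen with these contrasts known, nothing is read from these counts. The count with GREM1 was 2 without control replicate 1, control replicate 3 or GREM1 replicate 1. The median difference of the 10 was -0.26 with GREM1 and 0.040 with BMP4, against -0.0057 and -0.0060 over all tested genes. A moderated F test over the 3 groups was passed by Nr4a2, Klf10, Ier3 and Myc (largest adjusted p = 0.0173), where 5.13% of all genes passed. By group mean, 5 genes had the order GREM1, control, BMP4 (Nr4a2, Klf4, Klf6, Klf10 and Ier3), 3 the opposite order (Nr4a1, Nr4a3 and Klf5), and in 2 the controls were highest (Klf2 and Myc). Of the neighbours in these orders, those that differed past the threshold were GREM1 and control in Nr4a2, Klf10 and Ier3.

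Of 12 other Klf genes, 11 were tested, and limma called 0 with BMP4 and 0 with GREM1 against control (0 and 2 at an unadjusted p under 0.05). Over all tested genes 0.117% and 4.29% were called, and 8.02% and 20% had such a p. Klf3, a repressor expressed in muscle, was 0.57 ± 0.14 with GREM1 (adjusted p = 0.0543). With the replicate block 1 gene of the list was called with GREM1, where 1985 of all 17141 tested genes were called. Between BMP4 and GREM1 Klf3 was the 1 call of the 11, where 6.45% of all genes were called. It was at -0.67 ± 0.14 (adjusted p = 0.0214), a call lost without BMP4 replicate 2 or 3 or GREM1 replicate 1 or 2 (adjusted p up to 0.0900). The median of the list was -0.073 with GREM1.

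Of the Myc, Max and Mxd network, 12 of 13 genes were tested and limma called 0 in each of the 3 comparisons (1, 1 and 2 at an unadjusted p under 0.05), with a median of 0.026 with GREM1. Over all tested genes 0.117% were called with BMP4, 4.29% with GREM1 and 6.45% between them, and 8.02%, 20% and 19.4% had such a p. Mycn, the relative of Myc, differed by -0.11 ± 0.12 with GREM1 (adjusted p = 0.681). Myc minus Mycn changed by -0.52 with GREM1 and -0.34 with BMP4 against control, both without overlap (exact permutation p = 0.10). Mycn lay near the limit for dim genes (group means 4.14 to 4.29), so this difference says little beyond Myc alone. Of 22 growth and ribosome biogenesis genes known as Myc targets, limma called 0 with GREM1, where 4.29% of all genes were called. With the replicate block 1 was called, where 1985 of all 17141 tested genes were. Of the 22, 5 had an unadjusted p under 0.05, a share near the 20% of all tested genes, and 17 were below 0, against 51.4% of all genes, with a median of -0.12. Gnl3, a nucleolar GTPase, had -0.31 ± 0.090 (adjusted p = 0.0867), and the nucleolar protein Npm1 -0.26 ± 0.11 (adjusted p = 0.231). Others were above 0, such as Cdk4 at 0.21 ± 0.26 and Pa2g4 at 0.16 ± 0.17 (adjusted p = 0.704 and 0.656). With BMP4 limma also called 0 of the 22 (0 at an unadjusted p under 0.05), against 0.117% and 8.02% of all genes, and the median was 0.022. Between BMP4 and GREM1 it called 0 (3 at an unadjusted p under 0.05), against 6.45% and 19.4% of all genes. There 1 of the 22 was below 0, against 50% of all genes, with a median of 0.16.

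Around the Nr4a receptors, 5 partners and modulators were tested of 9, and limma called 0 in each comparison (1 with BMP4, 0 with GREM1 and 1 between them at an unadjusted p under 0.05). The shares of all tested genes called were 0.117%, 4.29% and 6.45%, and those with such a p 8.02%, 20% and 19.4%. Rxrg, a retinoid X receptor, was 0.81 above GREM1 with BMP4 (adjusted p = 0.0742). In the cyclic AMP and CREB pathway 11 of 11 genes were tested, and 1 rose and 1 fell with GREM1 (4 called with the replicate block). Of the 11, 5 had an unadjusted p under 0.05. Over all tested genes 4.29% were called with GREM1 and 20% had such a p. With the replicate block 1985 of all 17141 tested genes were called. The catalytic subunit gene Prkaca rose by 0.64 ± 0.14 (adjusted p = 0.0384) and the factor Atf1 fell by 0.49 ± 0.091 (adjusted p = 0.0204). Both lost the call without control replicate 1 or 3 or GREM1 replicate 1 or 2, and Prkaca also without BMP4 replicate 1 or 2 or GREM1 replicate 3 (adjusted p up to 0.136). Prkaca also lost it with only the compared groups (0.0669), a further quantile normalization (0.0767) and no filter on dim genes (0.0511). Of 7 tested muscle glucose-use genes that respond to Nr4a receptors, Pygm, the muscle glycogen phosphorylase, rose by 0.88 ± 0.10 with GREM1 (adjusted p = 0.00321). It was the 1 call of this list, where 4.29% of all genes were called. With the replicate block 2 of the list were called, where 1985 of all 17141 tested genes were. Pygm was also lower with BMP4 than with GREM1, by -0.88 ± 0.10 (adjusted p = 9.81e-04), where 6.45% of all genes were called. The median of the list was 0.19 with GREM1 and 0.18 with BMP4 against control. The glucose transporter Slc2a4 differed by 0.047 ± 0.18 with GREM1 (adjusted p = 0.921).

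Between BMP4 and GREM1 2 phosphodiesterase genes of the cyclic AMP list were higher with BMP4, Pde4d by 0.62 ± 0.13 and Pde4b by 0.48 ± 0.11 (adjusted p = 0.0193 and 0.0371), and Prkaca was lower (adjusted p = 0.0495). Over all tested genes 6.45% were called, 3.62% higher and 2.83% lower. Of the 11 on the list, 5 had an unadjusted p under 0.05, against 19.4% of all genes. Each of these 3 calls was lost without several single arrays, BMP4 replicates 1 and 2 and GREM1 replicates 1 and 3 among them for all 3 (adjusted p up to 0.178). With only the compared groups Pde4d (0.0529) and Pde4b (0.0608) lost it, and Prkaca did with the trend and robust prior (0.0506), a further quantile normalization (0.0753) and no filter (0.0664).

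Of 8 genes of the Erk5 pathway around Klf2 and Klf4, 2 rose and 1 fell with GREM1, where 4.29% of all genes were called. Of the 8, 3 had an unadjusted p under 0.05, against 20% of all genes. Mef2a, a muscle transcription factor that Erk5 activates, rose by 0.87 ± 0.12 (adjusted p = 0.00602). Mef2d rose by 0.88 ± 0.16 (adjusted p = 0.0199), a call lost without control replicate 3 or GREM1 replicate 1 or 2 (adjusted p up to 0.0852). Map3k2, a kinase above Erk5, fell by 0.48 ± 0.11 (adjusted p = 0.0438), a call lost without any single control or GREM1 array or BMP4 replicate 1 (adjusted p up to 0.144), with only the compared groups (0.0538), with centred arrays (0.0774) and with no filter on dim genes (0.0545). Between BMP4 and GREM1 Mef2a and Mef2d were lower with BMP4 (-0.88 ± 0.12 and -1.07 ± 0.16, adjusted p = 0.00236 and 0.00444). Map3k2 was higher (0.59 ± 0.11, adjusted p = 0.0128), a call lost without GREM1 replicate 1 or 2 (adjusted p up to 0.0601). Over all genes 6.45% were called between BMP4 and GREM1. There 4 of the 8 had an unadjusted p under 0.05, against 19.4% of all genes. Map2k5 and Mapk7, which encode the kinase pair itself, differed by 0.088 and -0.046 with GREM1 (adjusted p = 0.775 and 0.899).

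Among 25 tested immediate early genes outside the 10, 3 rose and 1 fell with GREM1 (8 called with the replicate block), and the median was -0.0061. Of the 25, 11 had an unadjusted p under 0.05. Over all tested genes 4.29% were called and 20% had such a p, and with the replicate block 1985 of all 17141 were called. The serum response factor gene Srf (0.47 ± 0.081), Egr3 (0.72 ± 0.13) and the mRNA decay factor Zfp36 (0.72 ± 0.13) rose, and the phosphatase Dusp5 fell by 0.39 ± 0.084 (largest adjusted p = 0.0340). All 4 calls were lost without control replicate 1 or 3 or GREM1 replicate 2, those of Srf, Zfp36 and Dusp5 also without GREM1 replicate 1, and that of Dusp5 also without control replicate 2, BMP4 replicate 1 or 2 or GREM1 replicate 3 (adjusted p up to 0.111). With only the compared groups Zfp36 (0.0575) and Dusp5 (0.0764) lost the call, and with centred arrays Dusp5 (0.0645). With BMP4 against control Btg2, an antiproliferative gene, was the 1 call (0.86 ± 0.12, adjusted p = 0.0331), where 0.117% of all genes were called. This call was lost without any single control or BMP4 array or GREM1 replicate 1 or 2 (adjusted p up to 0.164), with only the compared groups (0.0859) and with centred arrays (0.0551). Between BMP4 and GREM1 4 were higher and 4 lower, where 6.45% of all genes were called. There 11 of the 25 had an unadjusted p under 0.05, against 19.4% of all genes. The AP-1 subunit Junb (0.74 ± 0.12) and Btg2 (1.09 ± 0.12) were higher with BMP4 than with GREM1 (adjusted p = 0.00661 and 5.93e-04), in the same direction as Nr4a2, Klf4, Klf10 and Ier3. Egr3 (-0.83 ± 0.13) and Zfp36 (-0.86 ± 0.13) were lower (adjusted p = 0.00450 and 0.00439). Of 13 tested BMP-SMAD target genes, 6 fell with GREM1 against control (2.21% of all genes), with all 13 below 0 and a median of -0.74. By p the first 4 were Hey1, a Notch and BMP target (-0.77 ± 0.094), Smad7 (-1.03 ± 0.13), Dlx2 (-0.99 ± 0.14) and Smad6 (largest adjusted p = 0.00784). Between the treatments, 10 were higher with BMP4 than with GREM1 (3.62% of all genes), with a median of 1.25 against 0 over all genes. The same 4 came first: Smad7 (2.21 ± 0.13), Hey1 (1.25 ± 0.094), Smad6 (2.23 ± 0.18) and Dlx2 (1.63 ± 0.14), with a largest adjusted p of 2.02e-04. Smad7, an inhibitory SMAD, was their 1 call with BMP4 against control (1.18 ± 0.13, adjusted p = 0.0154), where 0.117% of all genes were called. That call was lost without any single control or BMP4 array (adjusted p up to 0.0949).

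Genes with the most similar pattern were taken as those with the highest Pearson r over the 9 arrays, a description in which the points share the 3 groups. For Nr4a2 they were Alcam, an adhesion molecule (r = 0.992), Ap1s2 (0.992) and Cd24a (0.990). For Klf10 they were Dlx2, a homeobox gene on the BMP-SMAD list (0.993), Ube2j1 (0.991) and Dpysl3 (0.988), and for Ier3 Orai2 (0.962), Fxyd5 (0.957) and Epdr1 (0.953). For Myc they were Rnf168 (0.969), Unc13c (0.952) and Qtrt1 (0.952), and for Klf5 the cGMP-dependent kinase Prkg1 (0.994), Otud1 (0.990) and Lmo7 (0.989). For Klf4 they were Glce (0.980), Adgrf4 (0.960) and Pappa (0.950), for Klf6 Slc2a13 (0.964), Ankrd28 (0.959) and Olfr311 (0.957), and for Klf2 Irf2bp1 (0.958), Rp9 (0.941) and Paxip1 (0.941). For Nr4a1 they were Med13l (0.985), Vwa1 (0.971) and Kif13a (0.966), and for Nr4a3 Nudt16 (0.976), Mus81 (0.960) and Adcy9 (0.959). Alcam was -1.28 with GREM1 and 0.33 with BMP4, next to -1.32 and 0.33 for Nr4a2, and Dlx2 was -0.99 and 0.65.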

How the data were processed

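The deposited table holds log2 expression values for 24973 gene-level probe sets on 9 arrays, which the authors made by RMA; the submitters' processing notes name Affymetrix Expression Console. RMA corrects background and normalizes between arrays. The sources used here give no chip definition or genome build. Values ran from 1.80 to 12.7, with array medians of 5.00 to 5.12. Precision is limited by the 3 arrays per group.

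Symbols came from the platform table: 24015 probe sets had 1, 0 had several and 958 had none and were not used. Where a gene had several probe sets the highest mean was taken. Dim genes, with fewer than 3 arrays above that array's 30th percentile, were left out (6870). Groups were compared with limma 3.58.1 in R 4.3.3 (lmFit, eBayes, 9 arrays, 6 residual and 3.47 prior degrees of freedom, two-sided, Benjamini-Hochberg within each comparison), checked on simulated data. Within-array differences of related genes were tested by exact two-sided permutation.

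The members and lists were chosen with earlier results of these data known. Named in the text were the 10 genes in each comparison, list members past the threshold (at most 4 by p), the 3 genes most like each member leaving out predicted genes, and Id1 and Smad6. Gnl3, Npm1, Cdk4, Pa2g4, Rxrg, Slc2a4, Mycn, Klf11, Map2k5, Mapk7 and the cell type markers fall outside this rule: they were picked with their values in view.

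Same-numbered arrays deviated together from their group means between control and BMP4 (r = 0.34, 0.17 and 0.58) and between control and GREM1 (0.24, 0.12 and 0.47), so the replicate number was used there as a block beside the results it changes. Between BMP4 and GREM1 the r was 0.22, 0.088 and 0.42, and the block was fitted there too, as an alternative. Arrays of different number ran from -0.47 (control 3 and BMP4 1) to 0.23 (BMP4 1 and GREM1 2). The same-numbered values of 0.088, 0.12, 0.17 and 0.22 lay within that range. Whether same-numbered arrays are pairs is not settled by these values, and the main fit had no block.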

Additional observations from a re-analysis of the deposited data

How the results depend on the processing

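The count of the 10 genes called was 0 with BMP4, 4 with GREM1 and 4 between BMP4 and GREM1, and stayed within 1.5 times of that under each of the 9 alternatives that keep all arrays. Leaving out 1 array at a time gave 0, 2 to 4 and 3 to 5. The F test called 4 of the 10 (2 to 5 without 1 array). With the replicate block, genes called with BMP4, with GREM1 and between them were 65, 1985 and 2192 (20, 735 and 1106 without it), and list genes called with BMP4 and with GREM1 were 4 and 27 (2 and 16 without it). Without 1 array the 3 gene counts ran from 2 to 17, 245 to 898 and 560 to 1155, and the list counts from 0 to 3, 8 to 18 and 15 to 26 (26 with all arrays). With only the compared groups 5 and 437 genes and 1 list gene were called with BMP4, GREM1 and BMP4. With array weights 68 genes and 4 list genes were called with BMP4 and 1768 genes between BMP4 and GREM1. With the 50th percentile filter, which left out Nr4a3, 31 genes were called with BMP4, and with centred arrays 1 list gene. The block also brought Klf5 (-0.72, adjusted p = 0.0116) and Klf6 (adjusted p = 0.0325) under the threshold between BMP4 and GREM1, and changed no other call of the 10 there. Signs turned only for values that were not called: Nr4a3 with GREM1 was -0.016 without control replicate 3 and -0.014 without GREM1 replicate 2. Leaving out GREM1 replicate 3 gave its other extreme, 0.078. Without BMP4 replicate 3, Nr4a3 was 0.040 with BMP4 and 0.017 against GREM1, and Klf5 was 0.12 with BMP4. The other extremes were -0.16 and -0.19 for Nr4a3, both without BMP4 replicate 1, and -0.61 for Klf5 without control replicate 3. Of 21 pair comparisons of related genes, 15 had groups that did not overlap (15 to 17 without 1 array). The cause of these shifts was not tested.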
